A study of Mus musculus with 12 samples.

Results

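The muscle microRNAs (myomiRs) mmu-miR-1, mmu-miR-133a, mmu-miR-133b, mmu-miR-206, mmu-miR-208a, mmu-miR-208b and mmu-miR-499, written below without the prefix for mouse, were examined in mouse liver and in a pool of RNA from 10 mouse tissues. The 7 members were chosen by name: a probe belonged when 1 part of its printed name was exactly the mouse miRNA. All 7 were on the array, out of 595 mouse miRNA probes, each printed as 4 spots.

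The livers came from male B6C3F1 mice, a hybrid strain, that the labels give as 27 to 30 days old. In the BaP group (6 arrays) mice received 150 mg/kg of benzo(a)pyrene, a polycyclic aromatic hydrocarbon that the liver turns into DNA-damaging metabolites, once a day for 3 days. The vehicle group (6 arrays) received corn oil alone, and both groups were sampled 4 h after the last dose. The sample labels give the tissue as the median liver lobe, whereas the series' design text speaks of adult mice and of random sections of liver lobes; the labels were followed. A group sampled at 24 h is named in the design and was not analysed here. On every array the liver RNA was labelled with the red dye Hy5 and a purchased RNA pool of 10 mouse tissues with the green dye Hy3. The dyes were never exchanged, so a liver over pool ratio also holds any dye bias of its probe. The labels do not list the tissues of the pool. They do not say beyond the group size that each array came from another animal, and p-values below measure the spread between these arrays.

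MicroRNAs are short RNAs that pair with messenger RNAs, mainly through bases 2 to 8 (the seed), and lower their translation or stability. Those called myomiRs are made mostly in heart and skeletal muscle. There miR-1 and miR-133a come from shared transcripts, miR-206 and miR-133b from skeletal muscle, and miR-208a, miR-208b and miR-499 from within genes for myosin heavy chains. Hepatocytes are not known as a source of them.

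The mature sequences show which of the members compared a probe could confuse, since hybridisation depends on the whole sequence. Sequences of 5 of the 7 were taken from RefSeq (GRCm38.p6). None was taken for miR-1 or miR-133a. The likeness of these 2 to miR-206, miR-133b and the other members was therefore not examined. Whether their probes could confuse them is not known from this comparison. The 5 are written 5′ to 3′ with the seed in capitals.
miR-206: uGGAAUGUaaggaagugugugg
miR-133b: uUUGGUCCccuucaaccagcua
miR-208a: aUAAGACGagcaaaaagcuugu
miR-208b: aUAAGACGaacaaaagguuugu
miR-499: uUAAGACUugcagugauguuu
The miR-208a and miR-208b sequences shared the seed UAAGACG and were the same at 19 of 22 positions. Counted from the 5′ end, with miR-208a's base first, they differed by G10A, A16G and C18U. The miR-499 seed was the same as theirs at 6 of 7 positions, whereas miR-206 and miR-133b shared 1 of 7 seed positions with each other. The mature miR-208a lies at chr14:54949072-54949093 on the minus strand within Myh6 and miR-208b at chr14:54975710-54975731 on the minus strand within Myh7, the genes of the alpha and beta heavy chains of heart myosin. The mature miR-499 lies at chr2:155622893-155622913 on the plus strand within Myh7b, a further myosin heavy chain gene. The mature miR-206 (chr1:20679055-20679076) and miR-133b (chr1:20682834-20682855) lie on the plus strand within the noncoding gene Lincmd1, with 3686 bases between their hairpins.

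Each array held 8720 spots, and the scanner marked every one of them, negative controls included, as well above background on the 12 arrays. Background was therefore taken from the 28 negative control spots: the limit was their median net signal plus 2.6 scaled median absolute deviations, in each channel of each array. Net signal is the spot mean minus the local background median, in scanner units. A probe was above background where most of its unflagged spots passed the limit. Liver limits were 1.92 and 2.89 on the 2 arrays of the first of 4 scan days (vehicle 1 and BaP 1) and 16.2 to 28.8 on the 10 others. Pool limits ran from 33.3 to 89.6, the highest on BaP 2. Between 166 and 341 mouse probes were above background in liver on an array, and between 235 and 365 in the pool. The liver label was set against markers chosen with earlier results of these data known. The 5 hepatocyte miRNAs averaged at least 2-fold higher in liver than in the pool, miR-122 by 3.79 ± 0.16 on the log2 scale (SD, n = 12). The 3 neuronal ones averaged at least 2-fold lower. Of the 228 mouse probes above background in the pool on all 12 arrays, 21 were that much higher and 65 that much lower.

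In liver, 4 of the 7 myomiRs were at background on every array, and in the pool all 7 were above it on every array. The 4 were miR-1, miR-133a, miR-133b and miR-499; with flagged spots kept, miR-133a passed on 1 BaP array. The probe of miR-206 was above background on 1 liver array, miR-208b on 6 and miR-208a on 10. Of all mouse probes, 38.3% were above background in the pool on all 12 arrays. The requirement for testing in liver, at least 3 arrays of a group above background, was met by miR-208a and miR-208b, 2 of the 7, against 35.6% of all mouse probes. Failing it was thus the common state of mouse probes in liver and not particular to the myomiRs.

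In muscle, miR-1 promotes differentiation and miR-133a proliferation of myoblasts. For miR-1 the net liver signal was -16.6 at the lowest, 3.28 at the median and 14.4 at the highest on BaP arrays, and -6.11, 2.21 and 3.43 on vehicle arrays. The groups overlapped and both lay around 0. Its pool signal on the same spots was 1514 at the lowest, 2073 at the median and 2622 at the highest on BaP arrays, and 1580, 1866 and 3497 on vehicle arrays. The miR-133a probe read -13.1, 3.94 and 26.6 in liver on BaP arrays and -3.66, 2.93 and 6.65 on vehicle arrays. In the pool miR-133a read 921, 1197 and 2764 on BaP arrays and 1056, 1204 and 3490 on vehicle arrays. For both miRNAs the highest pool value of each group was that of its first-day array.

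The skeletal muscle pair miR-133b and miR-206 was also dim in liver. Net liver signals of miR-133b were -10.0, 3.58 and 21.3 on BaP arrays (lowest, median and highest) and -4.07, 3.96 and 16.3 on vehicle arrays. Its pool signals were 281, 312 and 1163 on BaP arrays and 256, 337 and 1608 on vehicle arrays. For miR-206, which promotes skeletal muscle differentiation, liver signals were -6.19, 11.2 and 40.4 on BaP arrays and -0.54, 6.28 and 14.2 on vehicle arrays. The value of 40.4 was that of BaP 2, the 1 array where miR-206 passed the limit, which was 27.7 there. Pool signals of miR-206 were 184, 207.7 and 255 on BaP arrays and 195, 207.7 and 285 on vehicle arrays, with the groups overlapping.

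Among the myosin-gene miRNAs, the probes of miR-208a and miR-208b lit in liver on several arrays and that of miR-499 on none. The liver signal of miR-208a was 19.9, 38.3 and 76.8 on BaP arrays and 21.5, 38.6 and 67.0 on vehicle arrays, with wide overlap. It passed the limit on 6 of 6 BaP and 4 of 6 vehicle arrays. On vehicle 4 and vehicle 5 the unflagged spots that passed were not in the majority, although the mean over the spots was 27.7 and 49.1. For miR-208b the liver signal was 7.65, 20.3 and 47.1 on BaP arrays and 10.2, 20.5 and 25.9 on vehicle arrays. It passed on BaP 1 to 4 and on vehicle 1 and vehicle 3. Its spot SDs were 24.3, 25.0 and 27.7 on BaP 1, BaP 2 and BaP 4, around means of 20.9, 47.1 and 38.2. On BaP 3, vehicle 1 and vehicle 3 the spot SDs were 2.69, 7.30 and 5.09. The first-day passes, at 20.9 on BaP 1 and 18.4 on vehicle 1, were against the low limits of that day. Vehicle 4 and vehicle 5 did not pass at 23.1 and 25.9, against limits of 26.1 and 28.8. For miR-499 all liver signals lay between -13.7 and 5.94 over the 12 arrays.

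The same 3 probes were read in the pool on every array. The pool signal of miR-208a was 246, 262 and 289.6 on BaP arrays (lowest, median and highest) and 213, 283 and 304 on vehicle arrays. For miR-208b it was 63.2, 83.6 and 135 on BaP arrays and 65.5, 81.5 and 105 on vehicle arrays, no more than 2.71 times the pool limit on any array. For miR-499 it was 118, 132 and 155 on BaP arrays and 98.4, 131 and 183 on vehicle arrays. The groups overlapped for all 3.

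**Figure D1:**
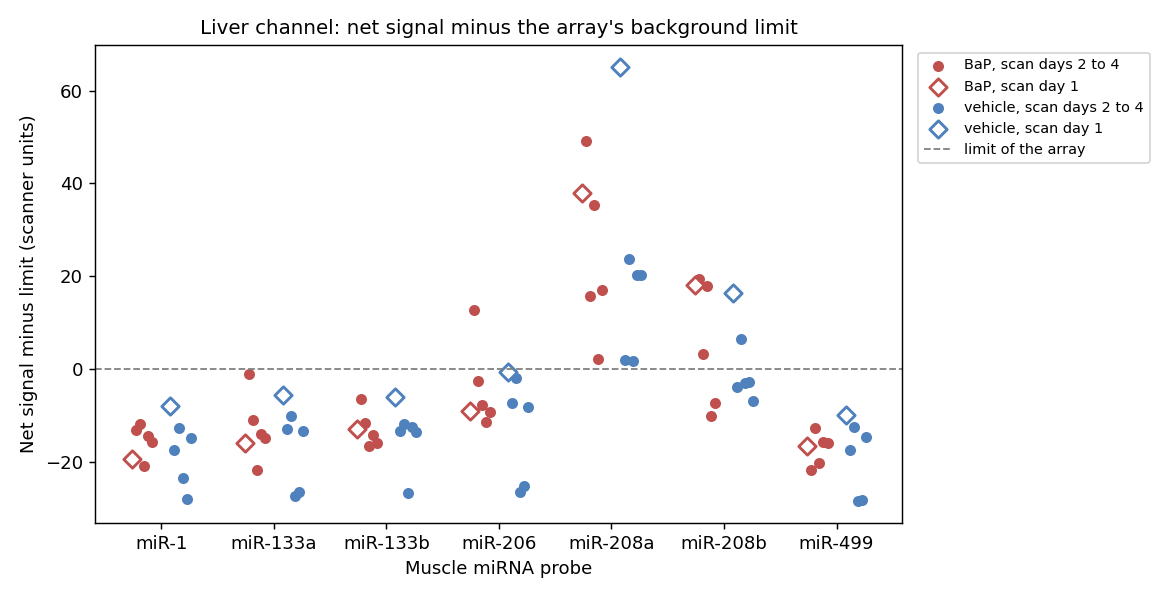
Net liver signal of each myomiR probe minus the background limit of its array, in scanner units, for 6 BaP arrays (red, left) and 6 vehicle arrays (blue, right); open diamonds are the 2 arrays of the first scan day. The points of miR-1, miR-133a, miR-133b and miR-499 lie below the dashed line on all 12 arrays, and those of miR-208a lie above it; a probe was called by most of its spots, not by the mean shown.

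How far miR-208a and miR-208b stood out of the liver background depended on what background was taken to be. The array also carried 119 probes for viral miRNAs, which a mouse liver is not expected to hold. The net liver signal of miR-208a exceeded 84.9% of them at the lowest, 91.6% at the median and 94.1% at the highest over the 12 arrays. That of miR-208b exceeded 53.8%, 82.4% and 88.2%. The others were lower: miR-206 had a median of 63.0%, miR-133b 36.6%, miR-133a 33.6%, miR-1 29.4% and miR-499 16.8%. With the 95th percentile of the viral probes as the limit, no member was above background in liver on any array. With that limit the pool still showed miR-1, miR-133a, miR-133b, miR-206 and miR-208a on all 12 arrays, miR-499 on 10 and miR-208b on 3.

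**Figure D2:**
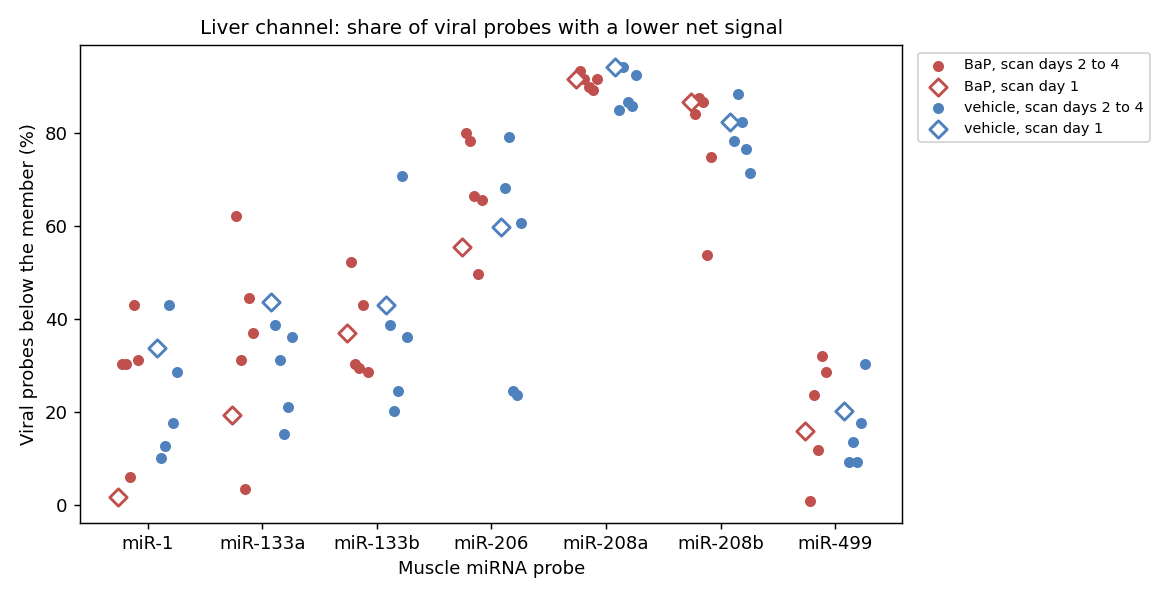
Percentage of the 119 viral miRNA probes with a lower net liver signal than each myomiR probe on the same array, for 6 BaP arrays (red, left) and 6 vehicle arrays (blue, right); open diamonds are the 2 arrays of the first scan day. The miR-208a probe ran from 84.9% to 94.1% and the miR-499 probe had a median of 16.8%.

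The ratio of liver to pool was below 0 on the log2 scale for all 7 members on all 12 arrays. It was computed after normexp background correction (offset 50) and loess within each array, which pulls dim signals towards equal. The mean for miR-1 was -4.13 ± 0.29 on BaP arrays and -4.14 ± 0.38 on vehicle arrays (SD, n = 6 each). For miR-133a it was -3.47 ± 0.62 on BaP arrays and -3.60 ± 0.61 on vehicle arrays. These 2 were the members furthest below the pool, and their groups overlapped.
For miR-133b it was -1.91 ± 0.65 on BaP arrays and -2.04 ± 0.82 on vehicle arrays. The ratios of miR-206 were -1.08 ± 0.13 on BaP arrays and -1.27 ± 0.24 on vehicle arrays, and those of miR-499 were -0.98 ± 0.13 on BaP arrays and -1.01 ± 0.19 on vehicle arrays. The closest to the pool were miR-208a, at -0.74 ± 0.23 on BaP arrays and -0.82 ± 0.24 on vehicle arrays, and miR-208b, at -0.13 ± 0.10 on BaP arrays and -0.16 ± 0.09 on vehicle arrays.

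Averaged over BaP arrays, 4 members (miR-1, miR-133a, miR-133b and miR-206) were at least 2-fold lower in liver than in the pool, against 18.2% of the 341 probes measured in the pool. Over vehicle arrays there were 5, with miR-499 added, against 19.6%. The miR-499 means lay on either side of that line by less than their spread. Over the 12 arrays the count was 4 here and 6, with miR-499 and miR-208a, under 5 other treatments of background or normalization, where 18.8% to 44.3% of the 341 probes were that low. Where a member was at background in liver on every array of a group, its ratio is a bound. Against the higher of the liver floor and the measured signal, the pool exceeded liver at least 16.7-fold for miR-1 on BaP arrays and at least 16.3-fold on vehicle arrays. The bounds for miR-133a were 10.6-fold on BaP arrays and 11.2-fold on vehicle arrays, and for miR-133b 3.55-fold on BaP arrays and 3.90-fold on vehicle arrays. For miR-499 they were 1.65-fold on BaP arrays and 1.72-fold on vehicle arrays, and for miR-206 2.20-fold on vehicle arrays. These bounds are open to dye bias. In bulk tissue, fewer cells of a type and less of the RNA per cell cannot be told apart.

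**Figure D3:**
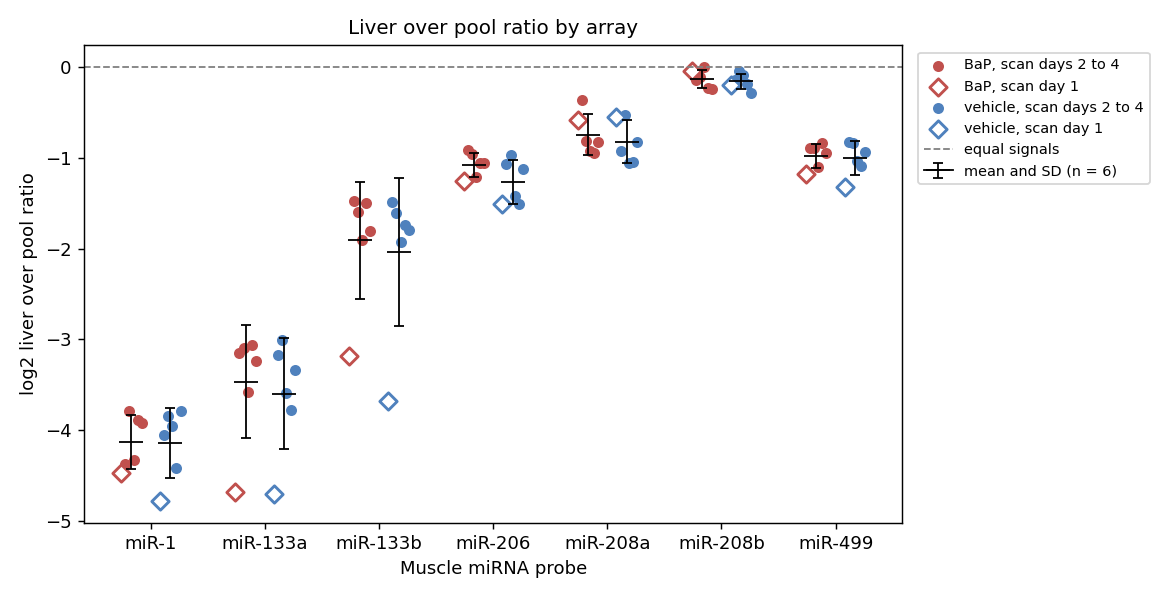
Log2 liver over pool ratio of each myomiR probe on 6 BaP arrays (red, left) and 6 vehicle arrays (blue, right), with the mean and SD in black; open diamonds are the 2 arrays of the first scan day. All points lie below the dashed line of equal signals, with means from -4.13 (BaP) and -4.14 (vehicle) for miR-1 to -0.13 (BaP) and -0.16 (vehicle) for miR-208b, and the first-day points of miR-133a and miR-133b lie apart.

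The pool is the same RNA on every array, so its signal should vary only with array, labelling and scan. For miR-133b it did not stay within a narrow range. The pool read 1163 on BaP 1 and 1608 on vehicle 1, the 2 arrays of the first scan day, against 256 to 365 on the 10 others. For miR-133a it read 2764 on BaP 1 and 3490 on vehicle 1, against 921 to 1353. In net signal both first-day arrays also lay above all others for miR-1 (2622 on BaP 1 and 3497 on vehicle 1, against at most 2337) and miR-499 (155 on BaP 1 and 183 on vehicle 1, against at most 145), as for 17.6% of the 341 pool probes. After quantile normalization between arrays this held for miR-133a and miR-133b, against 14.7% of those probes. The first-day mean was then 3.16-fold that of the other days for miR-133b, which ranked 3 of 341, and 2.21-fold for miR-133a, which ranked 12. The folds of the other members were 1.21 for miR-1, 0.991 for miR-206, 0.893 for miR-208a, 0.985 for miR-208b and 1.13 for miR-499, with both first-day arrays outside the others for none of them.

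A separate probe printed with the human name of miR-133b gave 3508 and 4349 in the pool on the first-day arrays, against 1202 to 1852 on the others. The liver over pool mean of miR-133b was -3.43 on the first day and -1.68 on the other days, and that of miR-133a was -4.69 on the first day and -3.30 on the other days. Without the first day the bound for miR-133b was 3.00-fold and that for miR-133a 9.18-fold over the 10 remaining arrays. Each scan day held both groups (1 BaP and 1 vehicle, 2 and 1, 2 and 2, 1 and 2). The dates recorded are those of scanning; what differed on the first day was not tested.

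**Figure D4:**
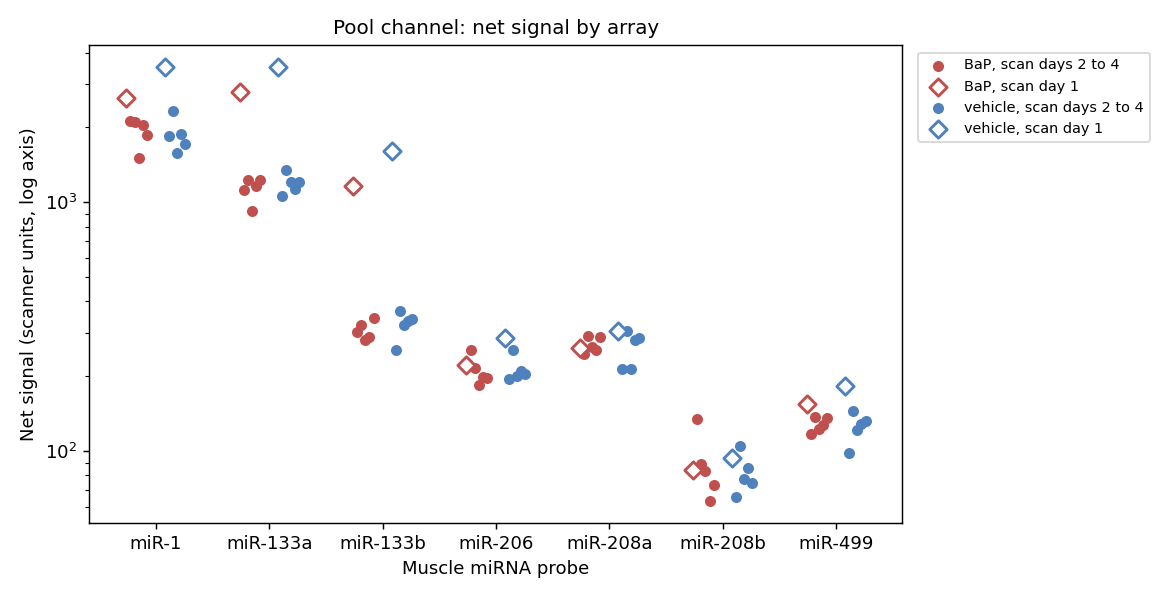
Net pool signal of each myomiR probe on the arrays hybridised with BaP livers (red, left) and with vehicle livers (blue, right), in scanner units on a log axis; open diamonds are the 2 arrays of the first scan day. The first-day arrays read 1163 and 1608 for miR-133b, against 256 to 365 on the 10 others.

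The series was designed to ask whether BaP changed liver miRNAs, and neither member that could be tested differed between the groups beyond the spread of the arrays. Limma called 0 of 212 tested probes at an adjusted p of 0.05 (0%), with 2 below 0.05 before adjustment and 0.789 as its lowest adjusted p. The BaP minus vehicle difference of miR-208a was 0.08 on the log2 scale (95% interval -0.19 to 0.34, limma adjusted p = 0.992, two-sided exact permutation p = 0.550), with 3 of 6 BaP arrays above the vehicle mean. That of miR-208b was 0.03 (95% interval -0.10 to 0.16, limma adjusted p = 0.992, exact permutation p = 0.587), with 4 of 6 above. The miR-208b probe met the liver requirement through the BaP arrays alone, with 4 BaP and 2 vehicle arrays above background. Its test is therefore not independent of that filter. With all 595 mouse probes in the fit, the member differences ran from 0.01 for miR-1 to 0.19 for miR-206, none passed, and the smallest unadjusted p among them in limma was 0.0893. Of these 7 members, 5 did not meet the liver requirement, and their differences rest on liver signals at background.

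The pool channel gave the same comparison on RNA that did not differ. Of 341 pool probes, 0 were called between the arrays of the groups (0%), 4 had a limma p under 0.05 before adjustment, and its lowest adjusted p was 0.933. Member differences ran from -0.06 for miR-133a to 0.15 for miR-1, which was -0.0863 when arrays were scaled by the 75th percentile. Their 95% intervals hold the spread between arrays, any first-day shift included: -0.11 to 0.11 for miR-208b, -0.14 to 0.09 for miR-206, and -0.76 to 0.68 for miR-133b. The pool SD of miR-133b on the log2 scale was 0.65 over BaP arrays and 0.72 over vehicle arrays. Over the 10 arrays of the other scan days it was 0.097.

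Other probes of the same miRNA numbers were also on the array. The human-named miR-133b probe had a liver over pool ratio of -3.77 ± 0.57 (SD, n = 12), was above background in the pool on all 12 arrays and in liver on 1. Its median pool signal was 1596 over the 12 arrays. The member probe of miR-133b had a median of 328 and a ratio of -1.98 ± 0.70 over the same arrays. A probe shared between miR-133a*, the passenger strand, and a further design sequence was above background in the pool on 11 arrays and in liver on 0, at -0.65 ± 0.24. The rat miR-1 probe was above background in the pool on 11 arrays and in liver on 0. Its median pool signal was 73.4 and its ratio -0.54 ± 0.13, against 1964 and -4.13 ± 0.33 for the member probe of miR-1. The folds and bounds above are thus those of the member probes, and why probes of 1 number differed was not tested. The rat miR-1* probe passed in liver on vehicle 5 alone and never in the pool. The mouse miR-1-2-as and human miR-499-3p probes passed on no array in either channel.

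Of 24 other miRNAs associated with muscle in the literature, 21 were above background in the pool on all 12 arrays. Of these, 14 averaged at least 2-fold lower in liver and 0 at least 2-fold higher, with a median log2 ratio of -1.12. Requiring pool signal leaves out miRNAs that are dim in the pool: of the 3 left out, miR-489 was at 1.90 ± 0.44 and miR-31 at 0.998 ± 0.126, both above background in liver on 12 arrays, and miR-486 was at -0.15 ± 0.11. Of the 228 mouse probes above background in the pool on all 12 arrays, 65 averaged at least 2-fold lower in liver and 21 at least 2-fold higher, with a median of -0.46. Most of these miRNAs are also made in other cells, and 14 of the 21 passed the liver limit on every array. The highest of the 21 were miR-29c at 0.86 ± 0.32, miR-21 at 0.41 ± 0.31 and miR-27b at -0.17 ± 0.07. The lowest were miR-143, abundant in smooth muscle, at -2.36 ± 0.38, miR-181a at -1.96 ± 0.29 and miR-199a-5p at -1.78 ± 0.15. In the BaP comparison 20 of the 24 were tested and 0 were called.

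The mouse probes with the liver over pool profile nearest to each member, by root mean square difference over 12 arrays among 227 candidates, were as follows. Nearest to miR-1 were miR-133a (0.71), miR-142-3p (0.85) and miR-9 (1.10), and nearest to miR-133a were miR-9 (0.62), miR-1 (0.71) and miR-142-3p (0.71). The probes closest to miR-133b were miR-181a (0.51), miR-34b-5p (0.57) and miR-10b (0.58). For miR-206 they were miR-449a (0.12), miR-200c (0.12) and miR-181b (0.13). For miR-208a they were miR-30e, miR-100 and miR-191, each at 0.17 or 0.18, and all 3 passed the liver limit on 12 arrays. The miR-142-3p probe did so too, although miR-1 and miR-133a, which it was near, were at background in liver on every array. A near ratio thus does not show that a member was above background in liver. For miR-208b they were miR-151-5p (0.07), miR-215 (0.08) and miR-377 (0.11), and for miR-499 miR-881 (0.07), miR-541 (0.09) and miR-429 (0.11).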

How the data were processed

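Per the file headers and the submitters' processing notes, the authors' deposited files hold scanner output of Agilent Feature Extraction 9.5.3.1: spot and background intensity of both dyes. The authors' deposited value table (log2, running pool over liver, opposite to the ratios here; correlation -0.990 to -0.977 with them) has no values for the 7 members. How it was scaled and centred is not given in the sources used here; its column medians ran from -0.0918 to -0.000345. Both channels received normexp correction (offset 50), then a loess fit within each array (limma 3.58.1 under R 4.3.3) from which control spots and outlier-flagged spots were left out. The 104 small RNA control spots count as controls; this was set after both versions had been run, to follow an earlier treatment of these files, and with them kept in the smallest adjusted p was 0.747 instead of 0.789. A probe's ratio is the mean of its unflagged spots, or of all where none was unflagged; of 336 member spot values 24 were flagged and 0 saturated. The printed net signals average all spots of a probe. The groups were compared with lmFit and eBayes for probes above background on 3 or more arrays of either group (Benjamini-Hochberg, threshold 0.05), and single members with exact permutation over 924 regroupings. The fit was also run on simulated data with independent noise for each probe and array. That simulation held no scan-day shift and says nothing about the effect of one. The number of arrays limits the precision. Named were all members, other probes of their numbers, the 3 highest and 3 lowest of the muscle-associated list among those above background in the pool on all 12 arrays and the 3 nearest probes per member. Members, lists and the negative-control limit were chosen with earlier results of these data known.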

Additional observations from a re-analysis of the deposited data

Results flagged for a closer look

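Values were looked at again where 1 array of a group of 6 lay far from the others (Dixon's critical value 0.625). Of 42 such comparisons 10 were marked, 9 of them for an array of the first scan day. Chance marks about 1 in 20 of independent comparisons. These shared arrays and signals, so their count does not measure an excess over chance. The net pool signal of miR-133b was 1163 on BaP 1 (others 281 to 342) and 1608 on vehicle 1 (others 256 to 365). That of miR-133a was 2764 on BaP 1 (others 921 to 1233) and 3490 on vehicle 1 (others 1056 to 1353). The log2 liver over pool ratio of miR-133b was -3.18 on BaP 1 and -3.68 on vehicle 1, and that of miR-133a was -4.68 on BaP 1. Net liver signals of -6.11 for miR-1 on vehicle 1 and -13.7 for miR-499 on BaP 1 were the lowest of their groups. The net pool signal of miR-208b was 135 on BaP 2, against 63.2 to 89.0 on the other BaP arrays.

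Among probes outside the members, rat miR-1* had a net liver signal of 316 on vehicle 5, against at most 10.7 on the other arrays. The human-named miR-133b probe had 46.1 in liver on BaP 2, against at most 11.1 elsewhere.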

How the results depend on the processing

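The members above background in liver numbered 2, and 1 with a limit of 4 scaled deviations, 1 with the highest negative control spot and 0 with the viral probes' 95th percentile as the limit. With flagged spots kept it stayed 2, with miR-208a above on 12 arrays, miR-208b on 9, miR-206 on 3 and miR-133a on 1. With the highest negative control spot 0 members, instead of 7, were above background in the pool on all 12 arrays; on BaP 3, where that spot read 24307, 0 members passed, and miR-1, miR-133a, miR-133b and miR-208a passed on the 11 others. The size of the liver over pool ratios moved with the background handling: for miR-1 it was -6.09 on BaP arrays and -6.24 on vehicle arrays from the processed signals in the scanner output, and -5.24 on BaP arrays and -5.27 on vehicle arrays with an offset of 16. Leaving aside fits within scan days 2 and 4, where 1 group held 1 array, no setting gave a BaP call in either channel. The exact permutation p could not go below 0.0022 before adjustment over 212 probes, which limits what that setting could call. The count of members at least 2-fold lower in liver over the 12 arrays was 4 to 5 with single arrays left out. It was 5 with the loess curve drawn through the brighter spots alone. With an offset of 16, plain subtraction, no normalization, median centring or processed signals it was 6. The median ratio of the 341 pool probes was -0.24 here, -0.89 with no normalization, -0.69 with median centring and -0.07 with plain subtraction. The miR-208b ratio difference between BaP and vehicle was -0.0159 with no normalization and -0.0328 within the third scan day, and that of miR-208a -0.0591 within the second. In the pool channel, scaling by the 75th percentile gave -0.0863 for miR-1, -0.0537 for miR-208a and -0.0164 for miR-208b, with the small RNA controls kept in too (-0.0856, -0.0530 and -0.0157), and leaving out the first scan day gave -0.00018 for miR-208b. Leaving out single arrays, pool differences ran from -0.26 to 0.12 for miR-133a, -0.30 to 0.26 for miR-133b, -0.0102 to 0.0304 for miR-208b and -0.0529 to 0.101 for miR-499; the miR-133a and miR-133b extremes were those without BaP 1 and without vehicle 1. The cause was not tested for any of these. Leaving out the first scan day and keeping the small RNA controls in were added after the data were seen. The deposited value table gave no member values. No paired analysis was possible because no number in the sample titles is shared between the groups; scan day as a block gave 0 calls in both channels.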
